A study of Saccharomyces cerevisiae with 6 samples.

Results

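Budding yeast cultures were sampled with and without 4-thiouracil (4TU), a uracil analogue that cells build into new RNA, and read counts per gene were compared between the labelled and the unlabelled library of each culture. Every culture contributed the DMSO library, taken as unlabelled, and the 4TU library at chase time 0, so that 12 of the 42 libraries of the series entered, in 6 pairs. All cultures were Saccharomyces cerevisiae in the BY4741 background, a laboratory strain that is haploid and has mating type a. Wild type had 3 cultures, and a strain lacking UPF3 (upf3Δ), a factor of nonsense-mediated mRNA decay, had 3 more, numbered 1 to 3 in each genotype. Labelled and unlabelled RNA alike was alkylated and sequenced from its 3′ ends (QuantSeq FWD). The labels do not say whether the deletion cultures came from 1 clone, nor for how long cells were labelled.

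SLAM-seq reads new RNA from T-to-C changes: the alkylated 4-thiouridine pairs with G during reverse transcription and appears as C where the genome has T. Decay rates are then taken from the loss of converted reads during a chase with uracil, on the premise that the label leaves transcript levels as they were. Uracil enters yeast through the permease Fur4 and is turned into UMP by the phosphoribosyltransferase Fur1, and the same nucleotide is made anew from carbamoyl phosphate by the URA enzymes.

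The 12 libraries held 11647559 to 17032584 reads over 5560 genes. Between 0.0249% and 0.0357% of the T bases read were converted in the unlabelled libraries and between 2.53% and 2.77% in the labelled ones. The labelled library was higher in 6 of 6 pairs (exact sign-flip test, two-sided, p = 0.03125, the smallest that 6 pairs can give). Multi-mapping reads made up 0.152% to 0.650% of unlabelled and 0.318% to 0.592% of labelled reads, higher with label in 5 of 6 pairs (exact sign-flip test, two-sided, p = 0.09375). The 5 markers of mating type a summed to 2832 to 6376 normalised CPM (counts per 1e6 reads, reads scaled by TMM to a common depth) without label and 2314 to 4297 with it. Those of mating type alpha summed to 25.6 to 72.3 and 19.8 to 58.2 CPM. Of the genes BY4741 lacks, MET17 had at most 4 reads and LEU2 at most 33, whereas URA3 had 79 to 321 and HIS3, which is removed only in part in this strain, 956 to 2987. Labels of library barcodes were shared, for both libraries, between wild-type replicate 1 and deletion replicate 3, and between deletion replicates 1 and 2.

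The deleted gene itself was checked first. On chromosome VII (634304 to 635467 in build R64), UPF3 (YGR072W) gave 10.4 to 30.9 CPM in the 6 wild-type libraries and 2.13 to 4.22 CPM in the 6 deletion libraries. The genotypes did not overlap. Its own label difference, 0.54 on the log2 scale (SE 0.19), did not pass the test (edgeR quasi-likelihood test with Benjamini-Hochberg adjustment, adjusted p = 0.122).

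Over the 6 cultures, 221 of the 5515 genes tested were higher in the labelled library (4.01%) and 105 were lower (1.9%), 5.91% in all, at an adjusted p under 0.05, in a fit with the culture as a block. Of these 326 genes, 57 were at least 2-fold higher and 18 at least 2-fold lower, and 291 moved the same way in 6 of 6 cultures. Over all genes tested, 8.14% were higher and 7.54% lower in 6 of 6 cultures. The count rested on single cultures: it was 1450 without deletion replicate 1, 399 without wild-type replicate 1, 54 and 44 without wild-type replicates 2 and 3, and 66 and 35 without deletion replicates 2 and 3. Replicates 2 and 3 of both genotypes alone gave 1280 higher (23.2%) and 1146 lower (20.8%) of 5518 genes. That subset is set beside the whole because replicate 1 was known from these data to stand apart, so its count is not independent evidence. In bulk RNA, fewer cells of a kind and less RNA per cell cannot be told apart, and changes are relative to the other genes of a library.

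**Figure D1:**
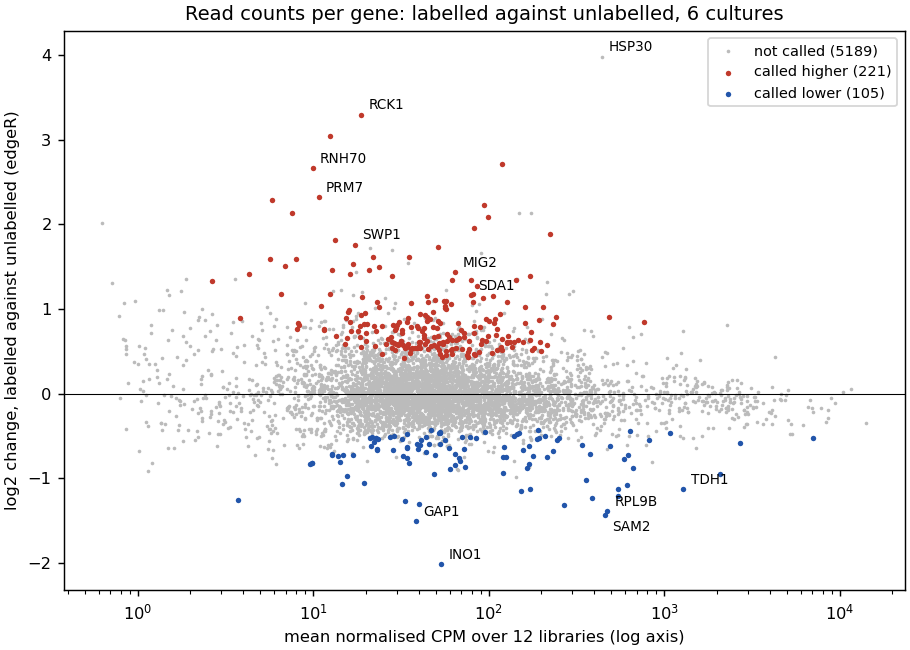
Each point is 1 of the 5515 genes tested, placed by its mean normalised CPM over the 12 libraries (x, log axis) and its log2 change between labelled and unlabelled libraries of 6 cultures (y). The 221 genes called higher are red, the 105 called lower blue; RCK1 tops the called genes labelled by name and INO1 lies lowest, while HSP30, higher still, was not called.

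Among called genes with a mean of at least 10 CPM over the 12 libraries and the same direction in 6 of 6 cultures, the highest rise was that of RCK1, a protein kinase linked to the oxidative stress response (YGL158W, chromosome VII, 207033 to 208571). Its unlabelled level was 2.54 CPM at the lowest, 2.96 at the median and 5.27 at the highest, against 14.2, 33.6 and 55.8 CPM with label. No labelled library overlapped the unlabelled ones. The log2 change was 3.30 (SE 0.26, adjusted p = 9.82e-04, higher in 6 of 6 cultures).

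PRM7, a membrane protein regulated by pheromone (YDL039C, chromosome IV, 381985 to 384081), stood at 2.28, 3.07 and 5.24 CPM (lowest, median, highest) without label and at 6.90, 17.7 and 27.5 CPM with it. The groups did not overlap, and the lowest labelled value was that of wild-type replicate 1. Its log2 change was 2.33 (SE 0.29, adjusted p = 0.00402). SWP1, a subunit of the oligosaccharyltransferase that glycosylates secreted proteins (YMR149W, chromosome XIII, 560996 to 561856), went from 3.92, 7.23 and 12.7 to 14.0, 20.2 and 50.3 CPM, again without overlap (1.76, SE 0.19, adjusted p = 0.00261). RNH70, an exonuclease that trims the 3′ ends of stable RNAs (YGR276C, chromosome VII, 1043819 to 1045480), rose by 2.66 (SE 0.26, adjusted p = 0.00235), from at most 4.96 CPM to between 5.62 and 26.9. COG1 (1.82), which tethers vesicles at the Golgi, THG1 (1.53), which adds a guanylate to histidine tRNA, and the vacuolar transporter YBT1 (1.47) rose too, as did the open reading frames YGL007C-A (2.23), YKR075C (2.09), YLR297W (1.62) and YOR338W (1.50). Without RNH70, whose mean was below 10 CPM, these 10 genes had the largest rises within those limits. Outside the limits, genes such as DCP1 (2.29), TPO2 (1.89) and PPR1 (1.50) rose by more than YBT1.

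The largest fall within the same limits was that of INO1, the synthase that makes inositol phosphate from glucose phosphate (YJL153C, chromosome X, 134332 to 135933). It was at 59.9, 80.5 and 123 CPM (lowest, median, highest) without label and at 8.44, 18.2 and 40.9 CPM with it. Every labelled library lay below every unlabelled one, deletion replicate 1 being the lowest. The log2 change was −2.02 (SE 0.31, adjusted p = 0.00805).

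GAP1, the general amino acid permease (YKR039W, chromosome XI, 515063 to 516871), fell from 39.5, 58.2 and 77.3 to 16.9, 19.9 and 22.4 CPM, a log2 change of −1.51 (SE 0.14, adjusted p = 0.00191). The labelled values were close together and all below the lowest unlabelled one. SAM2, which makes S-adenosylmethionine (YDR502C, chromosome IV, 1453310 to 1454464), fell from 528, 646 and 807 to 179, 236 and 412 CPM (−1.44, SE 0.16, adjusted p = 0.00274), also without overlap. RPL9B, a protein of the large ribosomal subunit (YNL067W, chromosome XIV, 499681 to 500256), fell from 543, 564 and 968 to 190, 200 and 521 CPM (−1.39, SE 0.14, adjusted p = 0.00235). Its highest labelled value, in deletion replicate 1, was just under the lowest unlabelled one.

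The remaining 6 of the 10 largest falls within these limits were YEL073C (−1.31), the urea amidolyase DUR12 (−1.30), TIS11, an RNA-binding protein of iron shortage (−1.27), the alcohol dehydrogenase ADH4 (−1.23), the methionine synthase MET6 (−1.21) and the argininosuccinate synthase ARG1 (−1.15). YEL073C ran at 150 to 779 CPM in deletion and at 36.4 to 166 CPM in wild-type libraries. Among the most abundant genes called, the glyceraldehyde-3-phosphate dehydrogenases TDH1 and TDH2 fell by 1.14 and 0.95, triose phosphate isomerase TPI1 by 0.53, the cell wall protein ZPS1 by 0.58 and SAH1, which removes S-adenosylhomocysteine, by 0.47. The third dehydrogenase gene, TDH3, did not pass the test (−0.35, adjusted p = 0.158).

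**Figure D2:**
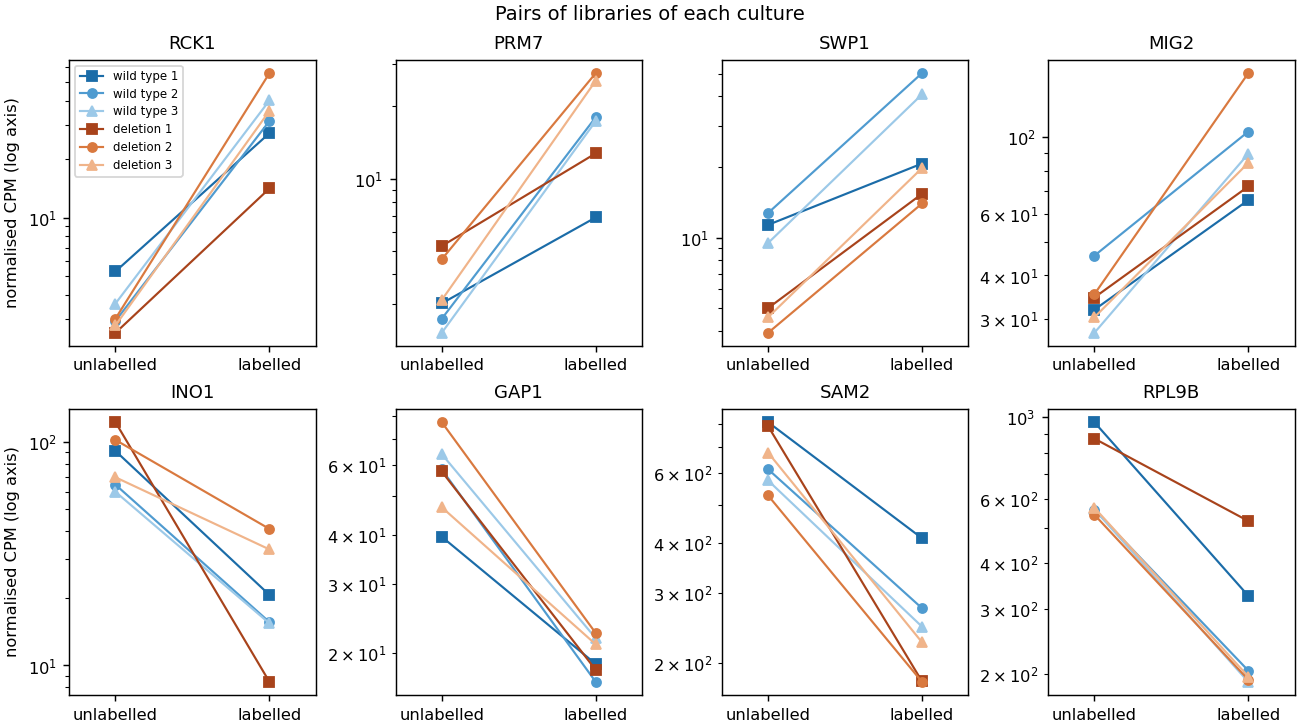
Normalised CPM (log axis) of 4 genes that rose and 4 that fell, unlabelled on the left and labelled on the right of each panel; a line joins the libraries of 1 culture, blue for wild type and orange for the deletion. All 6 lines rise for RCK1, PRM7, SWP1 and MIG2 and fall for INO1, GAP1, SAM2 and RPL9B, the shallowest RPL9B line being deletion replicate 1.

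Ribosome assembly, the making of ribosomal subunits in the nucleolus and nucleus, was the largest list apart from the ribosomal proteins. Of 86 ribosome biogenesis genes, 27 rose (31.4%, against 4.01% of all genes tested) and 0 fell (1.9% of all genes), with a median log2 change of 0.52 against −0.01 over all genes tested. The culture medians ran from 0.18 in deletion replicate 1 to 0.68 in wild-type replicate 1. IMP3, of the complex that processes the small subunit's RNA, rose by 1.01 (SE 0.13, adjusted p = 0.00402), from 23.8 to 49.2 CPM without label to 61.5 to 89.5 with it, with no overlap. SDA1, needed to mature the large subunit, rose by 1.16 (SE 0.15, adjusted p = 0.00418), but its levels overlapped, since both replicate 1 cultures were low (15.3 and 19.7 CPM without label, 29.2 and 73.3 with it). UTP5 (1.00) and ERB1 (0.83) rose likewise. The count was 82 in replicates 2 and 3 alone, where 23.2% of all genes were higher. It was 3 without deletion replicate 3, where 20 of all 5516 genes tested were higher.

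The nuclear exosome, which trims and degrades RNA from its 3′ end, and its cofactors had 4 of 20 genes higher (20%, against 4.01% of all genes) and 0 lower (median 0.38): the nucleases RRP6 (0.53) and DIS3 (0.59) and the core subunits RRP4 (0.55) and SKI6 (0.47). All 20 changes estimated over the 6 cultures were above 0, against 13 to 20 of them in single cultures. The culture medians ran from 0.17 to 0.58. RNA polymerases I and III, which make ribosomal and transfer RNA, had 5 of 27 subunit genes higher (18.5%) and 0 lower (median 0.23), among them RPA49 (0.63), RPA14 (0.83), RPA12 (0.61) and RPC34 (0.46). The open reading frame of RPA14 overlaps YDR157W, and reads of the pair may not be separable.

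Of the 137 genes for the ribosomal proteins themselves, 1 rose (0.73%, against 4.01% of all genes) and 4 fell (2.92%, against 1.9%), with a median of −0.07. The culture medians lay between −0.36 and −0.07 in 5 cultures and at 0.78 in deletion replicate 1. The labelled library of that culture had 46.3% of its reads in its 100 highest genes, against 35.0% to 40.4% in the other labelled libraries, and the part this plays was not tested. In replicates 2 and 3 alone 84 genes were lower (61.3%, against 20.8% of all genes) and 3 higher (2.19%, against 23.2%). RPS20 rose by 0.85 (SE 0.16, adjusted p = 0.0233), and RPS22B (−0.88), RPL8A (−1.08), RPL7B (−0.84) and RPL9B (above) fell. The paralogues of these 4 genes did not pass: RPL9A changed by 0.09, RPL8B by −0.18, RPL7A by −0.01 and RPS22A by −0.05. Whether the members of a pair differ was not tested. RPS22B and RPL7B carry the small nucleolar RNAs SNR44 and SNR59 within their bounds, and reads from near-identical copies may have been divided between paralogues, so these values are uncertain. The drop of RPL9B was −1.39 with all reads, and its call held when multi-mapping reads were left out.

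The lists of lipid and amino acid metabolism were read against the 1.9% of all genes that were lower. Inositol and phospholipid synthesis had 5 of 18 genes lower (27.8%) and 0 higher (median −0.32): INO1, the inositol transporter ITR1 (−0.73), the methyltransferases CHO2 (−0.55) and OPI3 (−1.13), which turn phosphatidylethanolamine into phosphatidylcholine, and the decarboxylase PSD1. OPI3 went from 553, 676 and 1020 CPM (lowest, median, highest) to 212, 304 and 543 CPM, and the groups did not overlap. Arginine synthesis had 4 of 12 genes lower (33.3%) and 0 higher (median −0.37), namely ARG1, ARG2 (−0.50), ARG7 (−0.76) and the mitochondrial ornithine carrier ORT1 (−0.43). Sulfur and methionine genes had 3 of 27 lower (11.1%), SAM2, MET6 and the sulfate-activating MET3 (−0.79), and 1 higher, MET8 (0.83), an enzyme of sirohaem synthesis. Of 19 amino acid permeases, GAP1 and DIP5 (−0.76) fell (10.5%) and none rose. Of 42 genes under general amino acid control 1 rose, ILV3, and 1 fell, HOM2 (2.38% each, median −0.09).

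Nitrogen use had 3 of 23 genes lower (13%, against 1.9% of all genes tested) and 0 higher: DUR12, the glutamate dehydrogenase GDH1 (−1.02) and the ammonium permease MEP2 (−0.52). Iron and copper genes had 3 of 25 lower (12%), TIS11, the reductase FRE1 (−0.84) and the vacuolar carrier SMF3 (−0.51), with a list median of −0.45. Phosphate genes had PHO5 (−0.74) and PHO12 (−0.60), acid phosphatases, lower (10%) and the phosphatase PHM8 (0.83) higher, of 20. The zinc list had 3 of 9 lower (33.3%: INO1, ADH4, ZPS1), and glycolysis had 4 of 21 lower (19.1%: TDH1, TDH2, TPI1 and the hexokinase HXK2, −0.54). Deletion replicate 1 had the lowest median of the 6 cultures for arginine synthesis (−0.96) and for inositol and phospholipid synthesis (−0.70), where the other cultures lay between −0.43 and −0.21 and between −0.32 and −0.11.

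**Figure D3:**
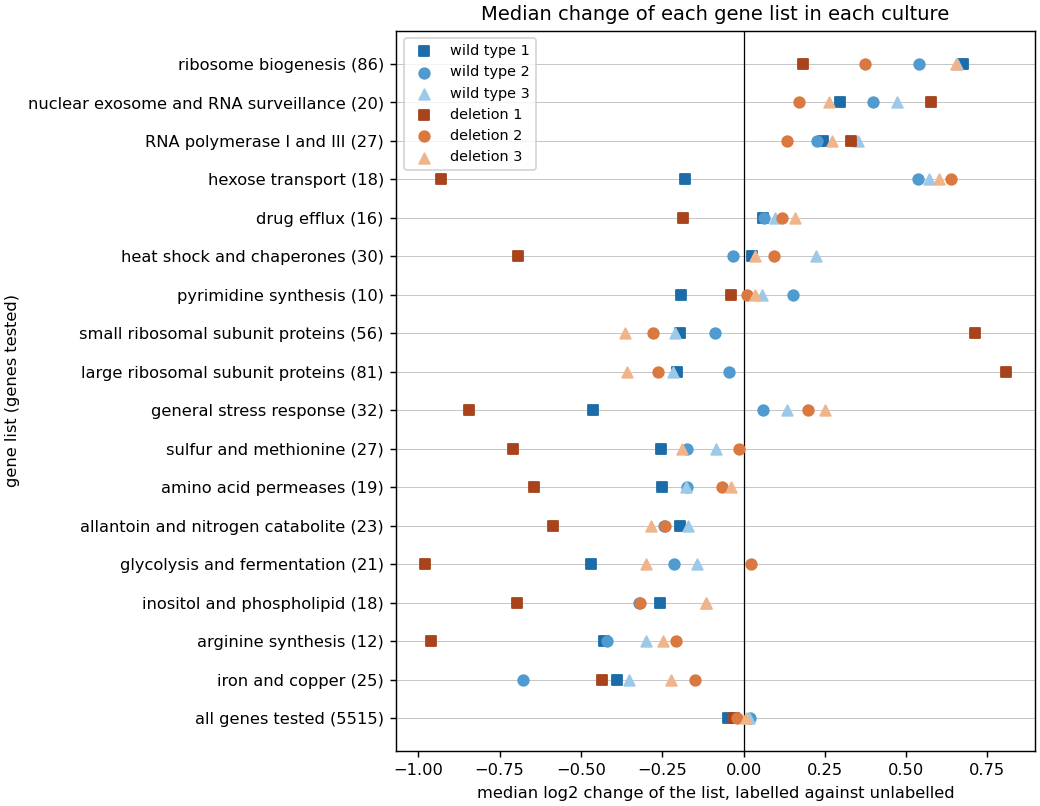
Median log2 change between labelled and unlabelled library (x) of 17 gene lists and of all genes tested (y, number of genes tested in brackets); each symbol is 1 culture, blue for wild type and orange for the deletion. The ribosome biogenesis medians lie between 0.18 and 0.68, and deletion replicate 1 stands at 0.71 and 0.81 for the small and large ribosomal subunit proteins, where the other 5 cultures are below 0.

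The label enters through the uracil salvage pathway. Of 10 genes of pyrimidine synthesis, edgeR called 2 lower (20%, against 1.9% of all genes) and 1 higher (10%, against 4.01%), and DESeq2 3 lower and 1 higher. URA2, which carries the first steps of the pathway, was at 129 to 600 CPM without label and 62.0 to 419 CPM with it, overlapping because replicate 1 of both genotypes was low, and fell by 0.60 (SE 0.14, adjusted p = 0.0349, lower in 6 of 6 cultures). URA3, which the strain lacks by its genotype and which had at most 321 reads a library, fell by 0.71 (adjusted p = 0.041), so the source of these reads is uncertain. The URA activator PPR1 rose by 1.50 (adjusted p = 0.0473), at no more than 15.4 CPM in any library. URA1 (0.11), URA4 (0.16), URA10 (−0.63) and CPA1 (−0.05) did not pass with edgeR, and URA10 passed with DESeq2 (adjusted p = 0.042). Of 12 uracil uptake and salvage genes edgeR called 0, with 4 at an unadjusted p under 0.05, and DESeq2 called 1 higher and 2 lower (8.88% and 4.57% of all genes by DESeq2). These were FUR1 (edgeR 0.40, adjusted p = 0.064; DESeq2 adjusted p = 0.00528), the permease FUR4 (edgeR −0.47, adjusted p = 0.0501; DESeq2 adjusted p = 0.00824) and the uridine permease FUI1 (DESeq2 −0.39, adjusted p = 0.0441). FUR4 and FUR1 each had 1 sign in 6 of 6 cultures. In replicates 2 and 3 alone 4 of the 12 were higher and 4 lower (23.2% and 20.8% of all genes).

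Among RNA decay factors, of 17 genes of decapping and 5′ decay edgeR called 1, higher (5.88%, against 5.91% of all genes in either direction). It was DCP1, a subunit of the decapping enzyme (YOL149W, chromosome XV, 44938 to 45633), at 0.819 to 7.34 CPM without label and 3.43 to 15.5 CPM with it (2.29, SE 0.40, adjusted p = 0.0157). These low levels overlapped between groups through the unlabelled wild-type replicate 1. Of 11 deadenylation genes edgeR called 0, with 2 at an unadjusted p under 0.05, and DESeq2 called 1 lower. Of 5 nonsense-mediated decay factors edgeR and DESeq2 called 0, with 2 at an unadjusted p under 0.05 by edgeR. The helicase gene NAM7 was at 0.39 (adjusted p = 0.119) and NMD2 at −0.10 (adjusted p = 0.716). In replicates 2 and 3 alone, 23.2% of all genes were higher and 20.8% lower. There, 6 decapping and 5′ decay genes were higher (35.3%) and 3 lower (17.65%). Deadenylation had 3 genes higher (27.3%) and 1 lower (9.09%), and nonsense-mediated decay had 2 higher (40%) and 1 lower (20%).

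Sugar and stress genes differed between cultures. MIG2, a repressor induced by glucose (YGL209W, chromosome VII, 95858 to 97006), rose from 27.3, 33.2 and 45.6 CPM (lowest, median, highest) to 66.0, 87.1 and 153 CPM with no overlap (1.44, SE 0.16, adjusted p = 0.00269). Within the hexose list of 18 genes it was the 1 rise over 6 cultures (5.56%, against 4.01% of all genes), and HXT5 (−0.82) and HXK2 fell (11.1%, against 1.9%). The list median was 0.42 all the same. In replicates 2 and 3 alone 10 genes were higher (55.6%, against 23.2% of all genes) and 2 lower (11.1%, against 20.8%). The culture medians of the list were −0.18 and −0.93 in replicate 1 of wild type and deletion and 0.54 to 0.64 in the others. Of 32 general stress genes 4 fell (12.5%, against 1.9% of all genes) and 0 rose over 6 cultures. Replicates 2 and 3 alone had 15 higher (46.9%, against 23.2% of all genes) and 8 lower (25%, against 20.8%), median 0.19. The culture medians were −0.46 and −0.84 in replicate 1 of wild type and deletion and 0.06 to 0.25 in the others. Those called over 6 cultures were ALD3 (−0.94), DDR2 (−0.67), SIP18 (−0.74) and RTN2 (−0.65). Of 30 heat shock genes FES1 rose (1.03) and HSP26 fell (−1.13), 3.33% each, near the 4.01% higher and 1.9% lower of all genes. The drug efflux carriers TPO2 (1.89) and PDR5 (0.64) rose, each in 5 of 6 cultures (2 of 16 listed, 12.5%, against 4.01% of all genes).

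In further lists the 6 cultures and replicates 2 and 3 alone gave unlike counts, as they did over all genes. Respiration and the citric acid cycle had 2 of 46 genes lower (4.35%, against 1.9% of all genes) and 25 (54.3%, against 20.8%) in replicates 2 and 3. The 2 were the malate dehydrogenase MDH1 (−0.78) and KGD2 (−0.62), a subunit of the ketoglutarate dehydrogenase. Of 64 mitochondrial ribosomal proteins 2 rose (3.13%, against 4.01% of all genes) and 0 fell. Replicates 2 and 3 alone had 3 higher (4.69%, against 23.2% of all genes) and 19 lower (29.7%, against 20.8%), median −0.16. Of 33 proteasome genes 1 fell (3.03%, against 1.9% of all genes). Replicates 2 and 3 alone had 3 higher (9.09%, against 23.2% of all genes) and 6 lower (18.2%, against 20.8%). edgeR called 0 of 10 histone genes, 25 ergosterol genes, 15 purine synthesis genes and 36 translation factors and tRNA synthetases, with 0, 5, 1 and 3 at an unadjusted p under 0.05. DESeq2 called 0, 3, 1 and 1 of them in the same order. Over all genes edgeR called 5.91%, and DESeq2 8.88% higher and 4.57% lower. Replicates 2 and 3 alone had 0, 5, 6 and 9 higher (0%, 20%, 40% and 25%, against 23.2% of all genes). They had 2, 7, 2 and 5 lower (20%, 28%, 13.3% and 13.9%, against 20.8%). The purine synthesis median was −1.13 in deletion replicate 1 and −0.001 to 0.19 in the other cultures.

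The widest spread over cultures was in HXT6, HSP30, THI21 and HXT4, genes chosen after their values were seen. HSP30, a heat shock protein of the plasma membrane (YCR021C, chromosome III, 156109 to 157107), was at 1063 and 1048 CPM in the unlabelled replicate 1 of wild type and deletion but at 6.24 to 15.1 CPM in the other 4 unlabelled libraries. With label it was at 356 to 682 CPM in all 6. The spread thus lay in the unlabelled libraries, and the change was −0.72 and −0.62 in the replicate 1 cultures against 5.11 to 5.90 in the rest (3.98 over 6, SE 1.27, adjusted p = 0.0956).

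HXT4, a hexose transporter, had 293 and 414 CPM in the unlabelled replicate 1 libraries, 13.2 to 19.3 in the other unlabelled ones and 96.8 to 225 with label. HXT6, whose sequence is nearly that of HXT7 and whose reads are therefore uncertain, had 296 and 368 CPM, 4.38 to 14.8 CPM and 47.8 to 81.9 CPM in the same order. BTN2, a chaperone-related sorting factor, had 308 and 289, 20.5 to 30.1 and 211 to 301 CPM. In each, the unlabelled replicate 1 libraries were the ones apart. THI21, an enzyme of thiamine synthesis, also ranged widely, but through low values: unlabelled wild-type replicate 1 was listed at 0 and its labelled library at 3.58 CPM. Of 5113 genes with a mean of at least 10 CPM, 73 ranged by at least 3 on the log2 scale over the cultures. Both replicate 1 changes lay below the other 4 in 23 of these, above in 3, and neither held in 47. The 73 were picked for their range, and no such counts over all genes are set beside them. In multi-mapping reads the labelled replicate 1 libraries stood apart as well. Without label the share was 0.528% and 0.650% in replicate 1, against 0.152% to 0.227% elsewhere. With label it was 0.564% and 0.592%, against 0.318% to 0.416%. The replicate 1 libraries also held the fewest reads, 11647559 to 14011957, against 14905419 to 17032584. What set the replicate 1 libraries apart was not tested.

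**Figure D4:**
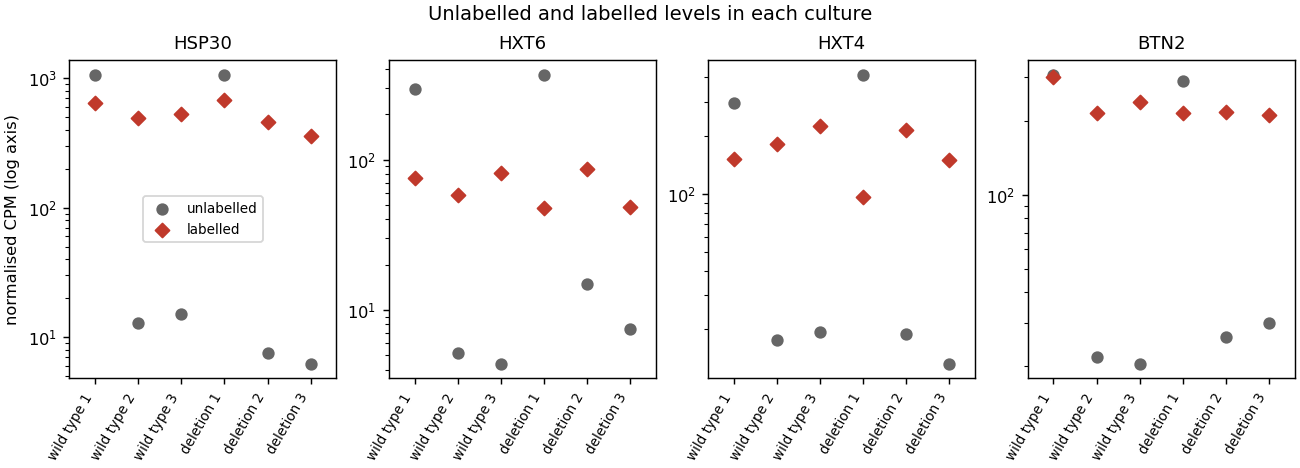
Normalised CPM (log axis) of HSP30, HXT6, HXT4 and BTN2 in the 6 cultures, grey circles unlabelled and red diamonds labelled. The unlabelled libraries of replicate 1 of both genotypes lie far above those of replicates 2 and 3, for HSP30 at 1063 and 1048 against 6.24 to 15.1 CPM, while the labelled libraries lie together.

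Across genes, the changes of single cultures correlated with r between 0.64 and 0.80 among replicates 2 and 3 of both genotypes. Wild-type replicate 1 correlated with these at 0.16 to 0.32, deletion replicate 1 at −0.01 to 0.13, and the replicate 1 cultures with each other at −0.12. These are descriptions over genes, which are not independent, of libraries normalised together.

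Taken apart, the genotypes gave few calls. In wild type, edgeR called 0 of 5515 genes (0%), with 805 at an unadjusted p under 0.05, while DESeq2 called 128 higher (2.32%) and 51 lower (0.925%). In the deletion edgeR called 1 gene higher, RCK1 (0.0181%; 3.51, adjusted p = 0.0212), and 1 lower, SAM2 (0.0181%; −1.76, adjusted p = 0.0212), with 704 at an unadjusted p under 0.05, and DESeq2 87 higher (1.58%) and 44 lower (0.798%). The 5 genes of lowest p in wild type were RCK1 (3.10), RNH70 (2.60), GAP1 (−1.48), RPL9B (−1.53) and ADH4 (−1.35), each at an adjusted p of 0.0613.

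The label effect was not called different between genotypes at any gene (0%): edgeR found 65 genes at an unadjusted p under 0.05, and DESeq2 also called 0. Lowest in p were YEL023C (deletion minus wild type −1.52), ESF1 (−1.27), RKM4 (−1.17), RPL22B (1.16) and UGA2 (−0.80), all at an adjusted p of 0.946. ESF1, a ribosome biogenesis factor, changed by 2.05, 0.49 and 0.63 in the wild-type cultures and by −0.25, −0.30 and −0.14 in the deletion. In replicates 2 and 3 alone YOL014W was called (−1.47, adjusted p = 0.019), with changes of 2.05 and 1.78 in wild type and 0.56 and 0.29 in the deletion; replicate 1 gave 0.80 and 0.96.

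The share of converted T bases moved weakly with the change. Over 5514 genes, the Spearman correlation between the log2 change and the conversion gained with label was 0.23, and it lay between 0.10 and 0.20 in single cultures. In the fifth of genes with the most conversion (1103 genes) the median change was 0.16, with 97 genes higher and 6 lower. In the fifth with the least (1103 genes) it was −0.08, with 15 higher and 41 lower. Of all 5515 genes tested, 221 were higher (4.01%) and 105 lower (1.9%). The conversion and the change come from the same labelled libraries.

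In the last chase library, set beside the unlabelled library of the same culture and scaled over all 42 libraries, RPL9B stood at 535 to 1002 CPM, where the unlabelled range was 520 to 924. INO1 was at 8.31 to 24.4 CPM against 61.3 to 121, and no chase value reached the unlabelled ones. GAP1 was at 24.3 to 50.8 CPM against 37.7 to 74.0. It lay below the unlabelled library of the same culture except in wild-type replicate 1 (38.9 against 37.7 CPM). RCK1 was still at 5.56 to 20.8 CPM against 2.50 to 5.03.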

How the data were processed

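Per the file headers, each table held 7 libraries of 1 culture, with counts of reads, converted reads and T bases per gene window and the converted fraction of T bases, as deposited by the authors from SlamDunk. The genome build was R64, per the submitters' processing notes; settings, versions and strand use: not given in the sources used here. Here each culture's DMSO library was paired with its 4TU library at time 0. Genes were matched by locus tag to RefSeq, 5558 of 5560. Counts were tested with edgeR 4.0.16 (TMM, filterByExpr by label, glmQLFit, glmQLFTest, two-sided, Benjamini-Hochberg, 0.05) with culture as block, and with the label nested in genotype over the same 12 libraries, which share 1 spread. DESeq2 1.42.0 was an alternative. Levels are CPM over effective library sizes; changes per culture use log-CPM with a prior count of 2. The scripts were checked on simulated data. Promoter motifs were not analysed here.

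The pairing comes from the table of each culture. Deviations of a culture's 2 libraries from the label means over both genotypes correlated at 0.50 to 0.85. Genotype differences remain in these deviations, so this correlation does not test the pairing. Deviations of the label effect from the genotype mean did not correlate between cultures of the same number across genotypes (r of −0.12 to −0.02). That r does not cover levels. In levels, the unlabelled replicate 1 libraries of both genotypes were alike for HSP30, HXT4, HXT6 and BTN2. Cultures are labelled as replicates, so p-values measure the spread between them. Members and gene lists were chosen with earlier results of these data known. Named were UPF3, the 10 largest rises and falls among called genes with a mean of at least 10 CPM and 1 direction in 6 cultures, the 5 most abundant called genes, the 5 lowest p where a contrast had no call, up to 4 genes of lowest p per list, and 8 genes fixed by name. The 4 genes of widest range over cultures, and RPL9A, RPL8B, RPL7A, RPS22A, TDH3, FUI1 and YOL014W, were named after their values were seen.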

Additional observations from a re-analysis of the deposited data

Results flagged for a closer look

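Sets of 6 values, with a value for each culture, were looked at for a culture set apart. Many were of genes picked for low p, so a chance rate of about 1 in 20 does not apply to them. Deletion replicate 1 stood apart from the other 5 cultures in 2 of the 52 sets. RPL9B changed there by −0.75 on the log2 scale, against −1.57 to −1.46 elsewhere, and MET6 by −2.94, against −1.12 to −0.53. These 2 are not a count of all values in which that culture lay apart. RPL7B changed there by −0.05, against −1.08 to −0.93 elsewhere, and RPL8A by −2.02, against −1.06 to −0.67. The median of the ribosomal protein genes was 0.78 there, against −0.36 to −0.07.

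In 3 named genes all wild-type cultures moved up with label and all deletion cultures down, a pattern that 49 of the 5515 genes tested showed (0.889%), with 27 the reverse (0.49%). The deletion-minus-wild-type difference was −1.52 for YEL023C, −1.27 for ESF1 and −1.17 for RKM4. Each was picked from all genes for its low p and none passed (edgeR, adjusted p = 0.946), and for RKM4 the changes in deletion replicates 2 and 3 were only −0.05 and −0.03.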

How the results depend on the processing

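The count of 326 genes became 742 with DESeq2, 960 with the second chase library, 2426 in replicates 2 and 3 alone and 14 with no replicate block (all 14 among the 326); leaving out 1 culture gave 35 to 1450. RLE size factors (360), the robust option (312), no filter (329) and no multi-mapping reads (329) stayed within 1.5 times. In the same order of the first 4, wild type gave 179, 102, 1287 and 0, with 1 by RLE, 2 in a separate fit and 0 to 314 without 1 culture, and the deletion 131, 62, 1679 and 1, with 0 in a separate fit and 0 to 39. The genotype difference gave 1 in replicates 2 and 3 alone, 0 otherwise, the replicate block on the label effect included.

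Counts of list members were added after seeing the data. Ribosome biogenesis genes higher (27) became 62, 66, 82 and 0, and 3 to 77 without 1 culture. The count higher among all genes tested (221) became 490, 569, 1280 and 10, and 20 to 770. Ribosomal protein genes lower (4) became 21 with the second chase library, 84 in replicates 2 and 3 and 0 with no replicate block, and 1 to 63. Inositol and phospholipid genes lower (5) became 8, 8, 9 and 1, and 2 to 8. The count lower among all genes tested (105) became 252, 391, 1146 and 4, and 14 to 680.

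Signs turned only in genes not called. YEL023C was −0.01 with the second chase library, −0.13 with no replicate block, −0.04 in replicates 2 and 3 and −0.24 to 0.26 without 1 culture. RKM4 was −0.05 with no block and −0.04 to 0.39 without 1 culture. The second chase library gave NMD2 0.08, CPA1 0.16 and RPL9A −0.03, and replicates 2 and 3 CPA1 0.22 and RPL9A −0.05. Without 1 culture CPA1 was −0.20 to 0.10, RPL9A −0.05 to 0.15 and THI21 −0.40 to 0.07. THI21 was 0.15 with DESeq2. With no block RPL22B was 0.06 and HXT6 −0.81. The causes were not tested.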
